A study of Mus musculus with 23 samples.

Results

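Chemoattractant receptors are the surface proteins through which leukocytes sense chemokines, complement fragments and formylated peptides. The genes described here are 9 such receptors, chosen by symbol: Ccr1, Ccr6, Ccrl2, Cxcr4, Cmklr1, C5ar1, C3ar1, Fpr1 and Fpr2. They are 9 of the 53090 genes in each of 23 RNA-seq tables of brain microglia, and all 9 passed the filter on low counts. The mice were female C57BL/6 in 4 groups: young (Y, n = 7), young with repopulated microglia (Y-re, n = 3), old (O, n = 5) and old with repopulated microglia (O-re, n = 8). Repopulation follows depletion with PLX5622, an inhibitor of the CSF1 receptor on which microglia depend for survival, given in AIN-76A chow at 1200 ppm. Per the labels' protocols, treatment controls ate the same chow without drug. The labels give no ages, no length of the diet and no time for repopulation. The extraction protocol names microglia sorted by flow cytometry, and another protocol text describes magnetic CD11b selection with culture. The drug acts on CSF1R in any cell that carries it, so the depletion is not limited to microglia by its design. The labels do not name the animal behind each library, so p-values measure the spread between these libraries, which may in part be technical.

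Most of these receptors couple to Gi proteins: ligand binding releases the beta-gamma subunits, which drive calcium release, PI3-kinase gamma and Rac, and the cell turns toward the source. G-protein-coupled receptor kinases and arrestins then switch the receptor off. Ccrl2 differs in that it is regarded as a presenting receptor that holds chemerin without signalling through G proteins. Microglia are known for C3ar1, C5ar1 and Cmklr1, while Ccr1, Cxcr4 and the formyl peptide receptors are also well known on monocytes and neutrophils.

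Library totals ranged from 43.66 to 58.19 M counts, where M is the SI prefix mega. The sample titles number the libraries. The numbers were divided here into runs, at the point where the group order starts again with Y. These runs are 1 to 11 (10 libraries: 3 Y, 2 O and 5 O-re) and 12 to 24 (13 libraries: 4 Y, 3 Y-re, 3 O and 3 O-re). Within each run the groups stand in blocks, so number order and group cannot be told apart there. What the numbers stand for is not stated. The 10 microglia markers, among them Csf1r and P2ry12, were present in every library, with a summed level of 26110 to 31969 counts per M (CPM) in Y, 23065 to 26800 in Y-re, 10369 to 26582 in O and 9814 to 30013 in O-re. The 8 classical monocyte markers, among them Ccr2, Ly6c2, Plac8 and Vcan, summed to 49.1 to 339 CPM in Y, 187 to 421 in Y-re, 183 to 2983 in O and 135 to 3712 in O-re. Such a sum does not show how its single genes moved. Ly6c2 averaged 139 CPM in O and 36.7 in O-re, whereas Vcan averaged 22.5 and 31.7. None of the 8 monocyte markers was at 0 in any library. Young replicate 3 stood apart from the other Y libraries, with 339 CPM of these markers beside 49.1 to 63.1 in the other 6, and it had the fewest genes with a count, 16399. The 8 lymphocyte markers summed to at most 1.44 CPM in any library, and each of the 8 was at 0 in some library.

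On the scale of transcripts per M (TPM), which divides by length so that genes can be compared, the receptors spanned a wide range of levels in young mice. Ccrl2 was the most abundant at 519 ± 138 TPM (SD, n = 7), followed by the complement receptor C3ar1 at 197 ± 33.4, the complement receptor C5ar1 at 141 ± 20.9 and the chemerin receptor Cmklr1 at 105 ± 11.6. The TPM ranges of Ccrl2 (340 to 670) and C3ar1 (152 to 237) did not overlap, whereas C3ar1 overlapped with C5ar1, and C5ar1 with Cmklr1. Cxcr4, the receptor for CXCL12, was at 46.9 ± 24.3 TPM, and Ccr1, a receptor for CCL3 and CCL5, was at 13.8 ± 6.63 TPM. Ccr6, the receptor for CCL20, had 2.14 ± 0.92 TPM, Fpr2 had 0.56 ± 0.52 TPM and Fpr1 had 0.34 ± 0.18 TPM. The ranges of Fpr1 and Fpr2 in young mice overlapped. The order was different in old mice, where Cxcr4 had the second highest mean, 289 ± 221 TPM (SD, n = 5), although its range of 49.8 to 606 TPM spanned the means of C3ar1 (218 TPM), C5ar1 (149 TPM) and Cmklr1 (123 TPM). Ccr1 in old mice reached 99.5 ± 89.9 TPM, Fpr2 6.26 ± 5.68 TPM and Fpr1 1.89 ± 1.06 TPM, while Ccr6 was lowest at 1.06 ± 0.80 TPM. In Y-re the means were 189 TPM for Cxcr4, 147 for Cmklr1, 97.8 for C5ar1 and 50.5 for Ccr1, so that Cmklr1 stood above C5ar1 there, with TPM ranges (130 to 161 against 88.0 to 111) that did not overlap. The O-re means were 274 TPM for Cxcr4, 118 for Ccr1, 6.53 for Fpr2 and 1.84 for Fpr1.

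**Figure D1:**
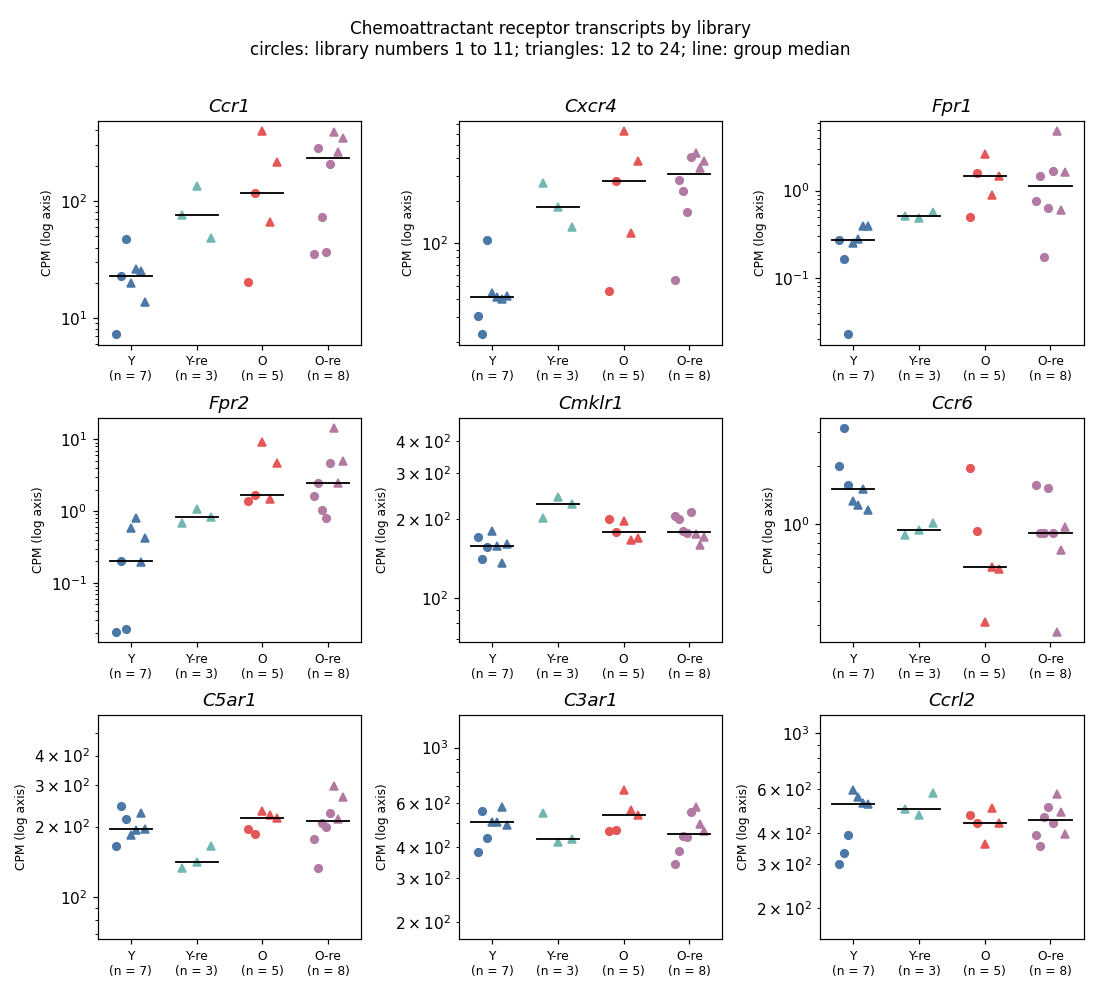
Each point is the level of a receptor in 1 library (CPM, logarithmic axis), by group, with the group median as a line, circles for library numbers 1 to 11 and triangles for 12 to 24. Ccr1, Cxcr4, Fpr1 and Fpr2 sit lowest in young libraries, with a spread of up to 19.5-fold among old libraries for Ccr1, while Ccrl2, C3ar1, C5ar1 and Cmklr1 vary little.

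Old microglia samples held more RNA of the chemokine receptors Ccr1 and Cxcr4 and of the formyl peptide receptors Fpr1 and Fpr2 than young ones. These 4 of the 9 receptors rose in old against young mice (edgeR's quasi-likelihood test, Benjamini-Hochberg adjusted p under 0.05), and none fell. Over all 18720 genes tested, 2.83% were called in this comparison, and 2.6% were called higher in old mice. The median log2 fold change of the 9 receptors was 0.21 and that of all tested genes -0.01. In bulk RNA, more cells of a type and more RNA per cell cannot be told apart.

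Ccr1 ranged from 7.24 to 47.2 CPM in Y, with a median of 22.8, and was 20.4, 116, 397, 66.1 and 215 CPM in O replicates 1 to 5. Old replicate 1 lay within the young range and the other 4 lay above it. The fitted change was a 7.03-fold rise, a log2 fold change of 2.81 ± 0.63 (SE; adjusted p = 0.0179). Cxcr4 ranged from 22.6 to 106 CPM in Y, with a median of 41.7, and was 45.6, 276, 627, 118 and 385 CPM in the O libraries. The highest young value was that of young replicate 3, and again 4 of the 5 old libraries were above all young ones. Cxcr4 rose 6.18-fold, a log2 fold change of 2.63 ± 0.50 (adjusted p = 0.00747), and without young replicate 3 the log2 value was 2.97 (adjusted p = 0.00221). The 5 old libraries stood in the same order for both genes, with replicate 3 highest and replicate 1 lowest.

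Fpr1 and Fpr2, receptors for bacterial and mitochondrial formyl peptides, had few counts in young mice. Fpr1 had 1 to 18 counts in the Y libraries, which is 0.02 to 0.40 CPM, and was 0.50, 1.57, 2.65, 0.89 and 1.45 CPM in O. Fpr2 had 1 to 37 counts in Y, which is 0.02 to 0.79 CPM, and was 1.40, 1.68, 9.35, 1.49 and 4.63 CPM in O. For both genes every old library was above every young library, a separation seen in 1.43% of tested genes in this direction. Fpr2 rose 11.5-fold, with a log2 fold change of 3.52 ± 0.77 (adjusted p = 0.015), and Fpr1 rose 5.52-fold, with a log2 fold change of 2.47 ± 0.63 (adjusted p = 0.0344). In young replicate 3 each of the 2 genes had 1 count, and without that library the log2 fold changes were 2.26 for Fpr1 and 3.32 for Fpr2.

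The other 5 receptors did not pass the test. Cmklr1 was 200, 179, 197, 166 and 169 CPM in O against 136 to 181 in Y, a log2 fold change of 0.21 ± 0.09 (adjusted p = 0.243). C3ar1 had a log2 fold change of 0.13 (approximate 95% interval -0.12 to 0.39), C5ar1 of 0.05 (-0.23 to 0.33) and Ccrl2 of -0.05 (-0.36 to 0.25). Those intervals bound the change of the abundant complement receptors and of Ccrl2 to well under that of the 4 receptors above. Ccr6 was 1.96, 0.92, 0.31, 0.60 and 0.58 CPM in O against 1.18 to 3.16 in Y, so that 4 of 5 old libraries were below all young ones. Its log2 fold change was -0.97 ± 0.43 (adjusted p = 0.275), and it was called at -1.49 without old replicate 1 (adjusted p = 0.0448).

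**Figure D2:**
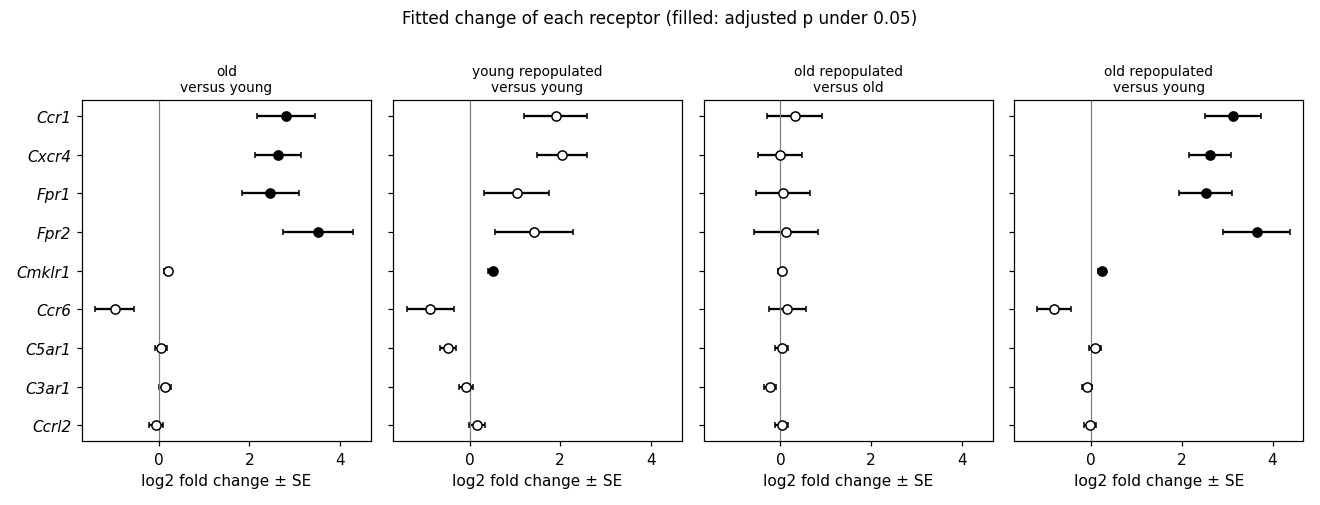
Points are log2 fold changes fitted with edgeR for each receptor in 4 comparisons, bars are standard errors, and filled points have an adjusted p under 0.05. The 4 receptors called in old against young mice are called again in old repopulated against young mice (2.52 to 3.65), whereas old repopulated against old values all lie between -0.22 and 0.31.

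Calls in old against young mice depended on old replicate 3, while the log2 fold changes stayed above 2. Without it, Cxcr4 alone of the 9 was called, at 2.13 (adjusted p = 0.0489), and the log2 fold changes were 2.17 for Ccr1 (adjusted p = 0.125), 2.11 for Fpr1 (adjusted p = 0.176) and 2.84 for Fpr2 (adjusted p = 0.0976). Without old replicate 5, Ccr1 (adjusted p = 0.0507) and Fpr1 (adjusted p = 0.0738) missed the threshold. The call for Fpr1 was also lost without any of young replicates 1, 2, 4, 5, 6 and 7 or old replicate 2, with adjusted p-values of 0.0515 to 0.0679.

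The monocyte markers moved with the same libraries. Their sums in O replicates 1 to 5 were 183, 1033, 2983, 372 and 1494 CPM, which is the order of Ccr1 and of Cxcr4 in those libraries. That order was not particular to monocyte markers. The sums of border-associated macrophage markers and of dendritic cell markers stood in it too. The microglia marker sums stood in the reverse order, from 26582 CPM in replicate 1 down to 10369 in replicate 3. The neutrophil and lymphocyte sums followed neither order. In old against young mice, 6 of the 8 monocyte markers rose and none fell, with a median log2 fold change of 3.71. Ly6c2, a surface antigen of inflammatory monocytes, changed most, by 6.25 (adjusted p = 0.00367), and Ccr2, the receptor that draws monocytes out of bone marrow, by 3.93 ± 0.86 (adjusted p = 0.0149). Among 10 microglia markers 1 fell, Fcrls by 0.78 on the log2 scale (adjusted p = 0.034), and none rose. Their median log2 fold change was -0.61, with 0 positive values and 5 of the 10 at an unadjusted p under 0.05. The part of these cells in the receptor results was not tested. Young replicate 3, the young library highest in monocyte markers, was also the young library highest in Ccr1 (47.2 CPM) and Cxcr4 (106 CPM), but it had 1 count each of Fpr1 and Fpr2. Of the 10 neutrophil markers 5 rose in old against young mice, including Mmp8 (log2 fold change 3.12 ± 0.59) and S100a8 (1.86 ± 0.49), while Ly6g, the defining surface antigen of mouse neutrophils, had a mean of 0.56 CPM in O and 0.07 in Y. The neutrophil sum was 437 to 674 CPM in O and 487 to 645 in Y, most of it from Csf3r, which averaged 391 CPM in O and 505 in Y. Over the 10 neutrophil markers the median log2 fold change was 1.87, with 9 positive values and 9 at an unadjusted p under 0.05. Of the 8 markers of border-associated macrophages 2 rose (Ms4a7 and Clec10a), with a sum of 61.4 to 176 CPM in Y and 153 to 497 in O. Of the 7 dendritic cell markers 3 rose (Cd209a, Ccr7 and Flt3), with a sum of 7.88 to 14.4 CPM in Y and 14.5 to 145 in O.

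**Figure D3:**
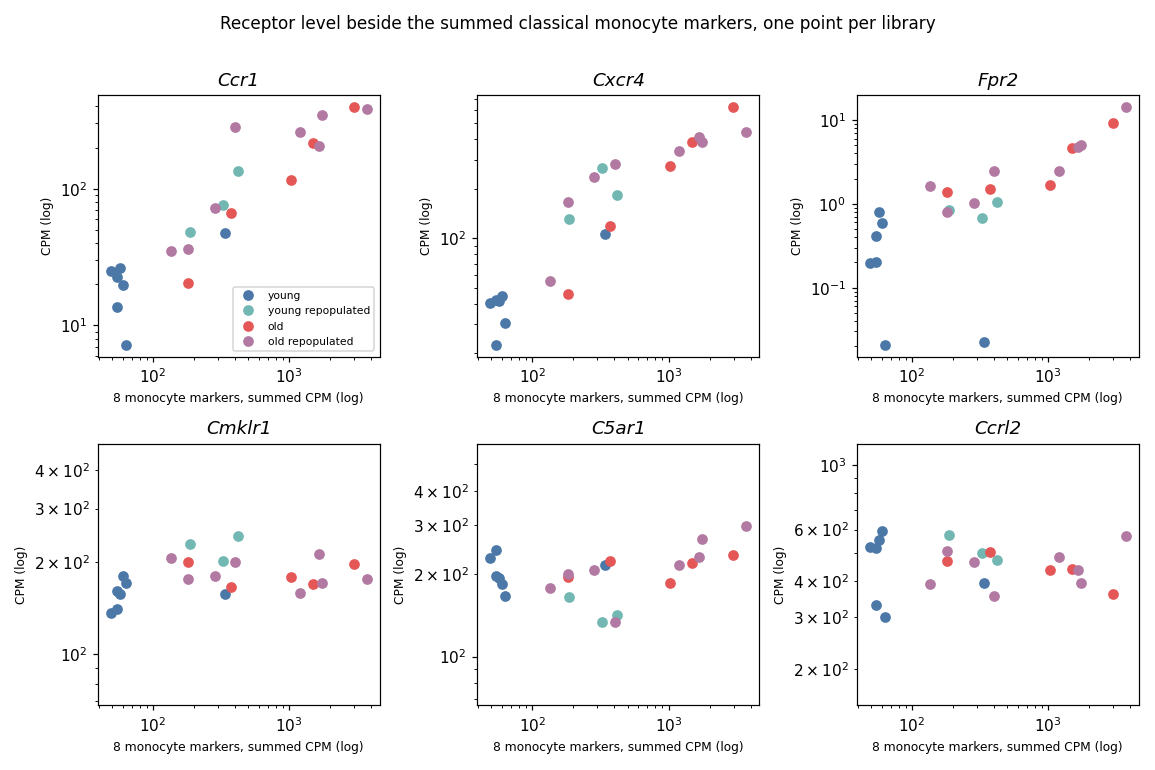
Each point is a library, with the summed level of 8 classical monocyte markers on the horizontal axis and the level of a receptor on the vertical axis (both CPM, logarithmic), coloured by group. Ccr1 and Cxcr4 are high in the O and O-re libraries with high marker sums, up to 3712 CPM of markers in O-re. The libraries do not follow the order of the markers for either receptor in Y or in O-re, nor for Cxcr4 in Y-re. Cmklr1 and Ccrl2 show no such spread. In O, the sums of border-associated macrophage and of dendritic cell markers, not plotted, put the libraries in the same order as the monocyte sums.

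The comparison of old with young mice differed between the runs of library numbers. Within numbers 12 to 24, all 4 receptors were called, with log2 fold changes of 3.41 for Ccr1, 3.16 for Cxcr4, 2.33 for Fpr1 and 3.36 for Fpr2, and Ccr6 was called at -1.39 (adjusted p = 0.0447). In that run 15.7% of tested genes were called. Within numbers 1 to 11 no receptor was called, and 1 gene in all was (0.00533%). The log2 fold changes there were 1.40 ± 0.99 for Ccr1, 1.58 ± 0.85 for Cxcr4, 2.74 ± 1.18 for Fpr1 and 4.18 ± 1.08 for Fpr2, each with an adjusted p of 1. The direction was the same in both runs for these 4 genes. For Ccrl2 it was not: the value was 0.40 ± 0.18 within 1 to 11 and -0.32 ± 0.14 within 12 to 24, neither called. With the run as a term in the fit of all libraries the same 4 receptors were called, at log2 fold changes of 2.50 to 3.64, beside 3.3% of genes.

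**Figure D4:**
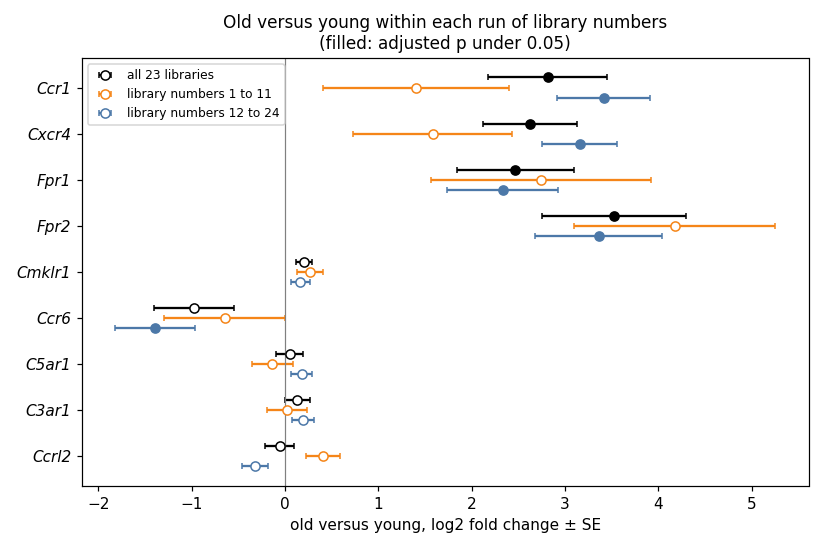
Log2 fold changes of old against young mice with standard errors are plotted for each receptor from all 23 libraries, from library numbers 1 to 11 and from 12 to 24, with filled points for an adjusted p under 0.05. Ccr1 and Cxcr4 are near 1.5 in the lower numbers (1.40 and 1.58) and above 3 in the higher ones (3.41 and 3.16), and the Ccrl2 values lie on either side of 0.

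The start regions of the 4 receptors that rose are shown so that the letters before these genes can be compared (positions in GRCm38, GENCODE M21). Ccr1 lies at chr9:123962124-123968692 on the minus strand, within the chemokine receptor cluster that also holds Ccr1l1, Ccr3 and Ccr2. Cxcr4 is at chr1:128588199-128592293 on the minus strand. Fpr1 (chr17:17876471-17883940, minus strand) and Fpr2 (chr17:17887824-17893952, plus strand) are arranged head to head, with 3884 bases between their annotated starts. The 250 bases before each RefSeq start (GRCm38.p6) follow, 5′ to 3′ on the gene's strand, with matches to TTNNGNAA on either strand in capitals, a loose form of the letters bound by C/EBP factors, which act in myeloid genes.
Ccr1, chr9:123968693-123968942: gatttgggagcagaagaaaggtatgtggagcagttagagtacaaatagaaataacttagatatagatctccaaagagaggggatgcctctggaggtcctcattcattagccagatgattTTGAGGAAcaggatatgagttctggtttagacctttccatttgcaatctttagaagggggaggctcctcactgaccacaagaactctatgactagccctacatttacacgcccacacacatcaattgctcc
Cxcr4, chr1:128592300-128592549: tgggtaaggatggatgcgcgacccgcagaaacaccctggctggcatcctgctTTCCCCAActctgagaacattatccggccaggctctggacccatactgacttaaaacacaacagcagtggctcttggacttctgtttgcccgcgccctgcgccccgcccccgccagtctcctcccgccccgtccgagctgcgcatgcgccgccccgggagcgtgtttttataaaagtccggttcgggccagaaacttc
Fpr1, chr17:17883940-17884189: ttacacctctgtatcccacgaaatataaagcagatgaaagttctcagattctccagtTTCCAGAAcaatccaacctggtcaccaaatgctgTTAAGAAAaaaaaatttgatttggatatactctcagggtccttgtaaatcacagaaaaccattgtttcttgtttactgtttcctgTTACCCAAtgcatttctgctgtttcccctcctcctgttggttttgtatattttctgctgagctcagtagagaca
Fpr2, chr17:17887574-17887823: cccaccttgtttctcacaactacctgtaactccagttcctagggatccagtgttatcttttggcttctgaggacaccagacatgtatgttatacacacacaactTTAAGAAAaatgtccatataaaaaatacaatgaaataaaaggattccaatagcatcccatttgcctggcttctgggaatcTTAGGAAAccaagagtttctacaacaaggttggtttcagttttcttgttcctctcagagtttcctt
Each of the 4 regions held a match, with 1 in Ccr1, 1 in Cxcr4, 3 in Fpr1 and 2 in Fpr2, and 36.8% of the 32851 promoters in the table held at least 1. Cmklr1, C3ar1 and the 3 listed starts of Ccrl2 held none, while C5ar1 and both starts of Ccr6 held at least 1. GAGGAA, the core read by PU.1, occurred in Ccr1, where it lies inside the TTNNGNAA match, in Fpr2, in Cmklr1 and in 1 of the 2 starts of Ccr6, and in 23.3% of all promoters. The region of Cxcr4 was rich in G and C (61.2%) and held 3 GGGCGG boxes (in 32.7% of promoters) and 2 TATAAA matches (in 12.4%). Those 2 matches, 1 on each strand, overlap in the same stretch, TTTATAAA. Fpr1 (38.4% G and C) and Fpr2 (38.8%) lay below the median of all promoters, 52.4%, and each had 1 TATAAA match. C3ar1 held 1 GGGCGG box and 1 TATAAA match, and 1 of the 3 starts of Ccrl2 held a GGGCGG box.

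Young repopulated microglia samples held more Cmklr1 RNA than young ones. This was the receptor called in that comparison (1 of 9, beside 1.34% of all tested genes, 0.828% higher). Cmklr1 was 202, 245 and 230 CPM in the 3 Y-re libraries and 136 to 181 CPM in Y, with a median of 158, and the ranges did not overlap. The log2 fold change was 0.51 ± 0.10 (adjusted p = 0.0121), a rise of 1.43-fold. It rested on 3 libraries: without Y-re replicate 2 the adjusted p was 0.0919 and without Y-re replicate 3 it was 0.064, with log2 values of 0.49 and 0.50. Within library numbers 12 to 24, which hold all Y-re libraries and in which 9.3% of genes were called, the value was 0.54 ± 0.10 (adjusted p = 0.00749).

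Ccr1 and Cxcr4 were higher in every Y-re library than in any Y library without passing the test. Cxcr4 was 267, 182 and 130 CPM in Y-re against at most 106 in Y, a log2 fold change of 2.04 ± 0.55 (adjusted p = 0.0693). It was called without young replicate 3 (2.38, adjusted p = 0.0262) and within numbers 12 to 24 (2.22, adjusted p = 0.00519). It was also called when old replicate 1, old replicate 3 or O-re replicate 1 was left out (adjusted p = 0.032, 0.0467 and 0.0334), libraries outside this comparison that share its estimate of the spread. In all, Cxcr4 was called in 8 of 32 alternatives. Ccr1 was 76.5, 135 and 48.4 CPM in Y-re against at most 47.2 in Y, a log2 fold change of 1.90 ± 0.69 (adjusted p = 0.184). It was called in 3 of 32 alternatives, among them numbers 12 to 24 alone (2.06, adjusted p = 0.0195). The monocyte markers in the same 3 libraries summed to 326, 421 and 187 CPM, and 0 of the 8 were called, with a median log2 fold change of 1.44. Of the marker lists of other cells, Mmp8 of neutrophils (2.64 ± 0.64, adjusted p = 0.0394), Ms4a7 of border-associated macrophages (2.47 ± 0.59, adjusted p = 0.0394) and Cd209a of dendritic cells (5.23 ± 0.80, adjusted p = 0.00195) rose in Y-re. The summed level of the border-associated macrophage markers was 240 to 340 CPM in Y-re and 61.4 to 176 CPM in Y. The part of all these markers in the Cmklr1, Ccr1 and Cxcr4 values was not tested.

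C5ar1, the receptor for the anaphylatoxin C5a, was 133, 142 and 165 CPM in Y-re and 166 to 244 CPM in Y. The ranges did not overlap, and the log2 fold change was -0.48 ± 0.17 (adjusted p = 0.177). C5ar1 was called in 3 of 32 alternatives, among them numbers 12 to 24 alone, at -0.42 (adjusted p = 0.04). Ccr6, at 0.88, 0.93 and 1.02 CPM in Y-re, was also below all Y values, with a log2 fold change of -0.87 ± 0.52 (adjusted p = 0.459). Fpr1 was 0.51, 0.49 and 0.57 CPM in Y-re, above all Y values, and Fpr2 was 0.68, 1.07 and 0.84 CPM, 2 of 3 above all Y values. Neither was called (adjusted p = 0.542 and 0.462). Ranges that did not overlap were common in this comparison of 3 with 7 libraries: they occurred in 6 of the 9 receptors and in 12.1% of all tested genes. Ccrl2 (0.17, approximate 95% interval -0.19 to 0.52) and C3ar1 (-0.08, -0.39 to 0.22) were not called.

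In old mice, repopulation was not followed by a called change in any of the 9 receptors (edgeR, 0 at an unadjusted p under 0.05 as well). Of all tested genes 0.278% were called in old repopulated against old mice. The log2 fold changes lay between -0.22 (C3ar1) and 0.31 (Ccr1). The precision differed between receptors: Cmklr1 was bounded to -0.14 to 0.19 and C5ar1 to -0.24 to 0.30 (approximate 95% intervals), whereas Ccr1 was bounded only to -0.88 to 1.51, Cxcr4 to -0.95 to 0.94, Fpr1 to -1.11 to 1.23 and Fpr2 to -1.26 to 1.52. The O-re libraries were themselves spread widely. Ccr1 ranged from 34.9 to 385 CPM with a median of 233, Cxcr4 from 54.9 to 438 CPM with a median of 310, and Fpr2 from 0.80 to 14.4 CPM with a median of 2.47. O-re replicates 1, 3 and 4 had the 3 lowest Ccr1 values (34.9, 72.3 and 36.3 CPM), the 3 lowest Cxcr4 values and the 3 lowest monocyte marker sums (135, 286 and 181 CPM). They also had the 3 lowest sums of border-associated macrophage markers and the 3 highest of microglia markers. They did not have the 3 lowest sums of dendritic cell markers. O-re replicate 2 had 281 CPM of Ccr1 with a monocyte marker sum of 402 CPM. It was close to old replicate 4 in monocyte markers (372 CPM) but not in Ccr1 (66.1 CPM). The border-associated macrophage markers summed to 590 CPM in that O-re library and 170 CPM in old replicate 4. The part of any of these sets of markers in the receptor values was not tested. O-re replicate 6 had the highest Ccr1, Cxcr4, Fpr1 and Fpr2 of its group and the highest monocyte marker sum, 3712 CPM. Within library numbers 1 to 11 and within 12 to 24 no receptor was called in old repopulated against old mice either, beside 0.0% and 12.7% of genes. The Ccr1 values there were 0.89 ± 0.97 and 0.55 ± 0.50.

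Whether repopulation acted differently in old and in young mice was tested by the interaction, and none of the 9 receptors passed (edgeR, 0.0% of all genes called, 1542 genes at an unadjusted p under 0.05). At the unadjusted level 3 receptors were under 0.05: Cmklr1 with a log2 difference of -0.49 ± 0.13 (adjusted p = 0.386), Cxcr4 with -2.05 ± 0.74 (adjusted p = 0.475) and C5ar1 with 0.51 ± 0.22 (adjusted p = 0.567). DESeq2 called none of the 9 and voom with sample weights called none. Within library numbers 12 to 24, where 8.87% of genes were called, these 3 receptors were called, with values of -0.61, -2.17 and 0.62. All Y-re libraries carry numbers above 21, so within the lower run the interaction could not be fitted.

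Old repopulated mice differed from young mice in 5 of the 9 receptors, all higher, in a comparison in which 15.2% of all tested genes were called. Of all tested genes 9.29% were higher and 5.92% lower in old repopulated mice, and with upper-quartile factors 7.27% were higher and 7.13% lower. Ccr1 rose by a log2 fold change of 3.13 ± 0.61 (adjusted p = 0.0021), Cxcr4 by 2.62 ± 0.47 (adjusted p = 0.00135), Fpr1 by 2.52 ± 0.59 (adjusted p = 0.00666) and Fpr2 by 3.65 ± 0.74 (adjusted p = 0.00283). Fpr2 was higher in all 8 O-re libraries than in any Y library (0.983% of genes), Fpr1 and Cxcr4 in 7 of 8 and Ccr1 in 6 of 8. Cmklr1 rose by 0.23 ± 0.08 (adjusted p = 0.0449), with 159 to 213 CPM in O-re overlapping 136 to 181 in Y. That call was lost with other scaling factors (adjusted p = 0.0546 and 0.155) and in 16 of 33 alternatives in all. Among them were leaving out young replicate 2, 3, 6 or 7, Y-re replicate 3, old replicate 5 or O-re replicate 2, 5 or 6, with adjusted p-values of 0.0505 to 0.0978. Within library numbers 1 to 11 no receptor was called, beside 0.0107% of genes, and the log2 fold changes were 2.29 for Ccr1, 2.10 for Cxcr4, 2.62 for Fpr1, 4.65 for Fpr2 and 0.33 for Cmklr1. Within numbers 12 to 24, beside 41.1% of genes, the first 4 were called at 3.96, 3.21, 2.83 and 3.86, and C5ar1 was called at 0.38 (adjusted p = 0.0167), while Cmklr1 was at 0.10 ± 0.10 (adjusted p = 0.5). This comparison shares its young libraries with the comparison of old and young mice, so the likeness of the 2 sets of values is not independent. Of the 8 monocyte markers 7 rose in old repopulated against young mice (median log2 fold change 3.67 over the 8), as did 5 of the 8 border-associated macrophage markers, 5 of the 10 neutrophil markers and 3 of the 7 dendritic cell markers. Of the 10 microglia markers 4 fell (P2ry12, Fcrls, Olfml3 and Csf1r), with a median of -0.77 over the 10, and none rose. The part of these markers in the receptor values was not tested.

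Against young repopulated mice, old repopulated mice showed no called receptor (edgeR, 0.0% of all genes called, 2183 genes at an unadjusted p under 0.05). At the unadjusted level C5ar1 was higher by 0.56 ± 0.17 (adjusted p = 0.38), Fpr2 higher by 2.23 ± 0.97 (adjusted p = 0.405) and Cmklr1 lower, at -0.28 ± 0.10 (adjusted p = 0.382). C5ar1 was 134 to 297 CPM in O-re, and 7 of 8 libraries were above the highest Y-re library. Cmklr1 was below all Y-re libraries in 6 of 8 O-re libraries. With the run of library numbers as a term, C5ar1 (0.68, adjusted p = 0.0335) and Fpr2 (3.20, adjusted p = 0.034) were called beside 4.52% of genes, and within numbers 12 to 24 C5ar1, Cmklr1, Ccr1, Fpr1 and Fpr2 were called beside 36.3%.

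The other genes of the pathway were taken from lists. Over all tested genes 2.83% were called in old against young mice. The share was 1.34% in young repopulated and 15.2% in old repopulated mice, each against young mice. Of 20 other chemokine receptors 16 were tested, and 3 rose in old against young mice and none fell: Ccr2 (log2 fold change 3.93), Ccr7 (3.77 ± 0.81), a receptor of maturing dendritic cells, and Cxcr2 (2.73 ± 0.64), the main neutrophil chemokine receptor. The median over the 16 was -0.40, and 6 of the 16 values were positive. The abundant microglial receptor Cx3cr1 (mean 1990 CPM in O, 2945 in Y) was not called. In old repopulated against young mice 3 rose and 3 fell, beside 9.29% and 5.92% of all tested genes. Among those that fell were Ackr3, an atypical receptor that takes up CXCL12 (-3.26 ± 0.65, adjusted p = 0.00247), and Ccr3 (-1.25). Ccr3 was low in both groups, with means of 0.46 CPM in O-re and 1.10 in Y. None of the 16 was called in young repopulated against young mice, where Ackr3 was at -3.98 ± 1.03 (adjusted p = 0.0547).

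Of 18 other leukocyte chemoattractant receptors measured, 9 were tested, and 2 rose in old against young mice: Ltb4r1, the leukotriene B4 receptor (2.91 ± 0.75, adjusted p = 0.0363), and Gpr35 (1.65 ± 0.44, adjusted p = 0.0448). The second C5a receptor, C5ar2, was at 32.5 CPM in Y and 28.8 in O, with a log2 fold change of -0.17 (adjusted p = 0.798). Ltb4r1 (3.43) and Gpr35 (1.40) also rose in old repopulated against young mice, where Gpr84 (-0.80, adjusted p = 0.0469) fell. The formyl peptide receptor relatives Fpr-rs3, Fpr-rs4, Fpr-rs6 and Fpr-rs7 had no count in any library.

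Ligands of these and of related receptors were counted in the same libraries. Of 22 genes 16 were tested, and in old against young mice 2 rose: Anxa1, a ligand of the formyl peptide receptors (3.53 ± 0.80, adjusted p = 0.0181), and C3, the precursor of the C3ar1 ligand C3a (1.30 ± 0.29, adjusted p = 0.0173). In young repopulated against young mice C3 rose (1.74 ± 0.33, adjusted p = 0.0099) and so did Ccl5, a Ccr1 ligand (2.52 ± 0.49, adjusted p = 0.0117), which averaged 46.1 CPM in Y-re and 8.04 in Y. Ccl3 and Ccl4 were abundant in every group, with means of 411 to 785 and 344 to 679 CPM, and fell in old repopulated against young mice by 0.93 and 0.98 on the log2 scale. In that comparison 4 ligand genes rose, beside 9.29% of all tested genes: Anxa1 (3.76 ± 0.77, adjusted p = 0.00315), Ccl7 (3.15 ± 0.74, adjusted p = 0.00717), C3 (1.38 ± 0.27, adjusted p = 0.00201) and Ccl2 (1.12 ± 0.34, adjusted p = 0.0297). Cxcl12, the Cxcr4 ligand, averaged under 1 CPM in every group, and Ccl20, the Ccr6 ligand, had no count in any library. Rarres2, which encodes chemerin, averaged at most 0.37 CPM in a group.

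Signalling and desensitisation genes were counted too. Of 33 measured, 32 were tested, and 3 rose in old against young mice, all of them regulators that speed the turning off of G proteins: Rgs1 (0.81 ± 0.21, adjusted p = 0.0412), Rgs14 (0.81 ± 0.19, adjusted p = 0.0223) and Rgs18 (2.67 ± 0.72, adjusted p = 0.0437). The median over the 32 was 0.04. In young repopulated against young mice Grk3, a receptor kinase, fell by 1.25 on the log2 scale (adjusted p = 0.0121), from 37.4 to 15.7 CPM. Old repopulated against young mice gave 6 of the 32 higher and 3 lower, beside 15.2% of all genes called. Those that rose were Rgs1, Rgs14, Rgs18, the gamma subunit Gng2 and the receptor kinases Grk5 and Grk6 (0.43 ± 0.13, adjusted p = 0.0236 for Grk6), and those that fell were Rgs10 (-0.58 ± 0.15, adjusted p = 0.0102), Grk3 and the gamma subunit Gng10. The Gi subunit Gnai2 (701 CPM in Y, 720 in O), the arrestin Arrb2 (331 and 344 CPM) and Rac1 (468 and 441 CPM) were not called in old against young mice. No list beside the receptors had a called gene in old repopulated against old mice, in the interaction or in old repopulated against young repopulated mice. Ccr2, Cxcr2, Ccr7 and Cx3cr1 also stand in the marker lists of monocytes, neutrophils, dendritic cells and microglia.

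The genes whose log CPM was most like that of each receptor over the 23 libraries were found among 9701 genes with a mean of at least 5 CPM. The libraries share groups and cell content, so these values describe the set only. Cxcr4 was most like Ms4a7 and Pla2g7 (Pearson's r of 0.99 each), and after the group means were removed the values were still 0.98 each. Ccr1 was most like the integrin gene Itga4 (0.98) and AI662270 (0.98), Fpr2 like Mcemp1 (0.92) and Foxp4 (0.91), and Fpr1 like Inpp5f (0.90) and Map4k3 (0.88). C5ar1 was most like Ywhaz (0.91) and Gramd4 (0.84), Ccr6 like Trim24 (0.90) and Zc4h2 (0.86), and C3ar1 like Cpeb4 (0.82) and Stk38l (0.80). Cmklr1 had its highest values with Mink1 (0.79) and Fbxo31 (0.79), and that with Mink1 was 0.48 after group means were removed. Ccrl2 had the lowest top value of the 9, 0.72 with Alkbh5.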

How the data were processed

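Poly(A) RNA of sorted microglia was sequenced as single 50 nt reads in 23 libraries, per the labels' protocols. FastQC 0.11.5, STAR, RSEM, limma and build GRCm38 are named in the submitters' processing notes, without other versions and without saying whether strand was used in counting. The authors deposited 1 table per library with expected counts (RSEM estimates that need not be whole) and TPM. Expected counts were rounded (87.26% were whole within 1e-06), and the deposited TPM served only to order genes by level.

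Counts were analysed with edgeR 4.0.16 in R 4.3.3: filterByExpr (18720 genes kept), TMM scaling, all 23 libraries in 1 model with a coefficient per group, and glmQLFTest for 6 contrasts. Calls required an adjusted p under 0.05 (Benjamini-Hochberg, over all genes tested). CPM is TMM-scaled. Log CPM used a prior count of 2. The SE is the log2 fold change divided by the square root of F, and approximate 95% intervals use the normal quantile. The tests were checked on simulated data. No pair of libraries had identical counts.

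The 9 receptors, the 10 other gene lists and the tests were chosen with earlier results of these data known. All receptors were named, with up to 4 called genes per list and contrast, list genes where their list is described, and for each receptor the 2 most alike genes (predicted Gm and Rik genes left out). A few genes that this rule names are not reported here. Identifiers of 8 of the 9 receptors had the same version in GENCODE M21 and promoters came from RefSeq (GRCm38.p6). The Ccr6 version differed, and no position of Ccr6 is given. Reads shared by close relatives are split by RSEM, which makes Fpr1, Fpr2 and Ccr1 uncertain to that extent.

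Alternatives were RLE and upper-quartile factors, no filter, a minimum mean of 5 CPM, voom with sample quality weights (limma 3.58.1), DESeq2 1.42.0, the compared groups alone, the run of library numbers as a term, each run alone, and leaving out each library.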

Additional observations from a re-analysis of the deposited data

Results flagged for a closer look

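In 27 combinations of a receptor and a group of 5 to 8 libraries, 4 single libraries lay farther from the rest of their group than Dixon's 95% limit allows. For independent, normally distributed values chance alone gives about 1 in 20. The values here are CPM from shared libraries, so 4 of 27 cannot be compared with that rate. Cxcr4 in young replicate 3 was 106 CPM, where the next highest young library had 44.5 CPM, and that library had 339 CPM of monocyte markers. Ccr6 in young replicate 2 was 3.16 CPM beside 1.18 to 2.00 CPM in the other young libraries. Fpr1 at 4.82 CPM and Fpr2 at 14.4 CPM were both highest in O-re replicate 6, where the next highest libraries had 1.69 and 4.98 CPM, and that library had the highest sum of monocyte markers, 3712 CPM. The part of these markers in the values was not tested.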

How the results depend on the processing

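No paired analysis was possible because each library number occurs once and replicate numbers only name libraries, so there is no replicate block. RLE factors, upper-quartile factors and the absence of a filter left the number of receptors called within 1.5 times the main number in all 6 comparisons. A mean of at least 5 CPM removes Ccr6, Fpr1 and Fpr2 from testing. With it 2 receptors were called in old against young mice (4 in the main analysis), beside 4.89% of genes. In old repopulated against young mice 2 were called (5 in the main analysis), beside 24.4%, and there Cmklr1, which stayed in testing, also lost its call. Library numbers 1 to 11 alone gave 0 receptors in both of those comparisons. In young repopulated against young mice (1 called), DESeq2 called 2, and voom, the compared groups alone and numbers 12 to 24 alone called 4 each. Numbers 12 to 24 alone called 3 in the interaction (0). In old repopulated against young repopulated mice (0 called), voom and the run as a term called 2 each and numbers 12 to 24 alone called 5. The cause was not tested. Leaving out 1 library at a time gave 1 to 5 receptors in old against young mice and 0 to 2 in young repopulated against young mice. The share of all genes called in those fits is not given here, so these counts cannot be set against it.

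Over all genes, the share called in old against young mice was 2.83% with edgeR, 5.19% with DESeq2 and 12.6% with voom, and in young repopulated against young mice 1.34%, 4.35% and 13.8%. In old repopulated against old mice it was 0.278%, 1.66% and 2.21%, in the interaction 0.0%, 0.235% and 0.807%, and in old repopulated against young repopulated mice 0.0%, 0.433% and 17%. In old repopulated against young mice voom called 35.5% (15.2% with edgeR). No filter gave 0.526% in young repopulated against young mice and 0.108% in old repopulated against old mice, and the compared groups alone gave 7.5% and 0.0%. The run as a term gave 0.609% in old repopulated against old mice, 0.0374% in the interaction and 24.5% in old repopulated against young mice.

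The sign of several small changes, none of them called in the main analysis, was not stable. In old against young mice Ccrl2 was 0.40 in numbers 1 to 11 and -0.14 to 0.016 over the libraries left out, and C5ar1 was -0.0044 with upper-quartile factors and -0.13 in numbers 1 to 11. In young repopulated against young mice Ccrl2 was -0.056 in numbers 12 to 24, and C3ar1 was -0.22 to 0.025 over the libraries left out. In old repopulated against young mice C5ar1 was -0.14 in numbers 1 to 11, whereas it was called higher in numbers 12 to 24. In old repopulated against old mice the values in numbers 1 to 11 were -0.30 for Ccr6, -0.066 for Ccrl2, 0.52 for Cxcr4, -0.002 for C5ar1 and -0.12 for Fpr1. In numbers 12 to 24 they were 0.048 for Cxcr4 and -0.072 for Cmklr1. With voom they were 0.41 for Cxcr4 and -0.39 for Fpr1, and with the run as a term 0.13 for Cxcr4. Over the libraries left out they spanned -0.058 to 0.69 for Ccr6, -0.038 to 0.077 for Ccrl2, -0.29 to 0.48 for Cxcr4, -0.0055 to 0.058 for Cmklr1, -0.050 to 0.11 for C5ar1, -0.51 to 0.41 for Fpr1 and -0.52 to 0.82 for Fpr2. Depth limits the precision of Fpr1 (1 to 18 counts) and Fpr2 (1 to 37 counts) in young mice.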
